A study of Mus musculus with 11 samples.

Results

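Kidneys scarred by obstruction of the ureter were compared with lungs scarred by bleomycin, to ask how far the diseased organs stood apart in gene level and which genes of one organ remained low in the other. The comparison used 5 of the 11 mouse arrays of the series, 2 fibrotic kidneys and 3 fibrotic lungs, and covered the 12008 genes, of 19057 with a probe of 1 gene symbol, that were above background on at least 2 of these 5 arrays. All mice were BALB/C adults and all are labelled female. The fibrotic kidneys came from mice after unilateral ureter obstruction, an operation that blocks urine outflow from 1 kidney, and the fibrotic lungs from mice given bleomycin into the trachea, a drug that injures the lung lining. The healthy kidneys and healthy lungs, 3 of each and from the same 3 untreated mice per the titles, served to measure the organ difference without disease. Whole tissue was used, so the obstructed kidney and the treated lung each hold all their cell types, and no time after surgery or dose of drug is given in the sources used here.

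Kidney tubules reclaim salt, sugar, phosphate, amino acids and filtered protein through transporters on their brush border, under transcription factors of the HNF and PAX families. The lung surface is lined by flat alveolar type 1 cells and surfactant-making type 2 cells, with club and ciliated cells in the airways, and NKX2-1 is the factor that specifies this lining. Fibrosis lays down collagen-rich matrix made by myofibroblasts in either organ, and macrophages accumulate in both.

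Raw median intensity was 95.2 and 109.5 for fibrotic kidney and 123.6 to 125.1 for fibrotic lung, and each of these arrays detected 10534 to 11369 of the 12008 genes. Levels below are normalised log2 intensities, on which about 5 is the edge of detection: the lowest level called above background was 5.10 in either fibrotic kidney and 4.84 to 4.95 in the fibrotic lungs. The fibrotic samples came from separate mice, per the design text. The fibrotic kidneys correlated with each other at r = 0.958 across genes, the fibrotic lungs at 0.978 to 0.985, and kidney with lung at 0.778 to 0.848, where healthy kidney and healthy lung correlated at 0.694 to 0.759. At the edge of the filter, 766 genes were above background on exactly 2 of the 5 arrays, with a median level of 4.93, and 280 of them were called different between the organs. Genes are not independent replicates, and the correlations describe the arrays only.

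Several arrays carried transcripts that their labels do not lead to. Xist, which coats the silenced X chromosome, stood at 10.83 and 10.56 in the kidneys with fibrosis and at 5.61, 4.37 and 9.03 in the lungs with fibrosis. Eif2s3y, a Y-linked gene, stood at 4.42 and 4.40 in the kidneys and at 9.78, 9.76 and 4.44 in the lungs. Fibrotic lungs 1 and 2 therefore carried Y-linked RNA and the kidneys did not, although every mouse is labelled female, and all healthy organs carried it as well (9.06 to 9.41 in kidney and 9.41 to 9.75 in lung). Sex-linked transcripts thus moved in part with organ and with disease, and their part in the results was not tested beyond leaving those lungs out. Without fibrotic lungs 1 and 2, a setting chosen after seeing the data that leaves 1 lung, the calls numbered 1817 and 1705 in place of 2893 and 2779.

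Fibrotic lung 1 also held kidney transcripts. Of 144 genes high in healthy kidney and at background in the healthy lungs, 67 were above background in fibrotic lung 1, 27 in lung 2 and 34 in lung 3. Umod, the main urinary protein, reached 9.19, 5.74 and 4.46 in the fibrotic lungs. Of 352 genes high in healthy lung and at background in the healthy kidneys, 176 and 189 were above background in fibrotic kidneys 1 and 2. That set was chosen by level and not by cell type. In a separate list, interstitial matrix genes above background numbered 18, 18 and 20 in the healthy kidneys and 29 and 30 in the fibrotic ones. Their overlap with the 352 was not counted. How many of the 352 reflect lung transcripts was not tested. Scgb1a1, the secretoglobin of airway club cells, stood at 12.48 and 11.35 in the fibrotic kidneys against 15.07, 14.95 and 15 in the fibrotic lungs and 4.37 to 4.52 in the healthy kidneys. Sftpc, a surfactant protein, stood at 9.22 and 7.75 in the same kidneys. Some other defining lung genes stood near or below the edge of detection there: Sftpb stood at 5.56 and 4.87, Cxcl15 at 4.96 and 4.54 and Cldn18 at 4.66 and 4.80. Others, such as Ager and Slc34a2 with levels given below, stood above that edge. Of 23 surfactant and type 2 genes on the array, 18 and 16 were above background in fibrotic kidneys 1 and 2. In the healthy kidneys 11, 9 and 9 were. Differences of several kidney genes below are therefore also given with fibrotic lung 1 left out, and those of Scgb1a1 and Sftpc beside their kidney levels.

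**Figure D1:**
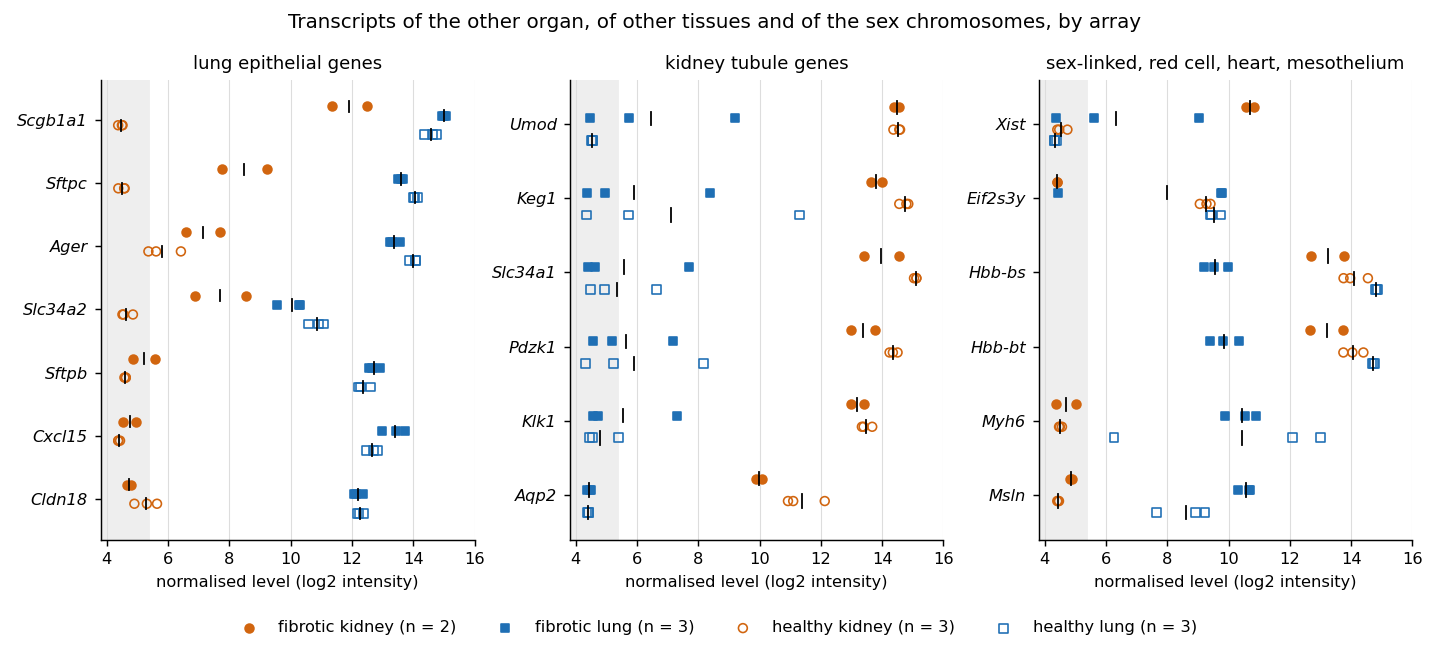
Normalised log2 level (x axis) of lung epithelial genes, kidney tubule genes, and sex-linked, red cell, heart and mesothelial genes on all 11 arrays. Each point is 1 array, black ticks are group means, and grey covers levels below the highest of the arrays' detection edges. Scgb1a1, Sftpc and Slc34a2 are raised in both fibrotic kidneys while Sftpb, Cxcl15 and Cldn18 stay near background, and fibrotic lung 1 stands apart for Umod (9.19) and Slc34a1 (7.70).

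The diseased organs differed across much of the genome. Of the 12008 genes, 2893 (24.1%) were higher in fibrotic kidney and 2779 (23.1%) higher in fibrotic lung at a limma adjusted p under 0.05, 47.2% in all. A difference of at least 4-fold was called for 620 genes (5.16%) in kidney and 505 (4.21%) in lung. The 2 kidneys and 3 lungs did not overlap for 3868 genes (32.2%) higher in kidney and 3742 (31.2%) higher in lung. With so large a share called, a list of genes is read below against these percentages. The median difference over all genes was 0.01 log2 units, kidney minus lung, and differences are given in that direction throughout, with the SE of the fit after ±. That SE rests on a spread pooled over the 4 groups, so a healthy array that stands apart can widen it. The split of the calls depended on how arrays were scaled: 51.0% of the called genes were higher in kidney here, 34.0% when arrays were set to a common median, and 23.2% in the processed intensities of the authors, and the median of all genes moved to -0.21 and -0.44 under those scalings. All genes that were called in both that scaling and the one used here kept their sign, 4761 genes for the common median and 4278 for the processed intensities.

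The genes furthest above lung in the fibrotic kidney were tubule genes. Slc34a1, the proximal tubule transporter that reclaims phosphate, stood at 14.55 and 13.39 in fibrotic kidney against 7.70, 4.62 and 4.40 in fibrotic lung. The kidneys lay far above every lung, and only lung 1 was above background, a difference of 8.40 ± 0.91 (limma adjusted p = 4.98e-05; 7.81 without fibrotic lung 3 to 9.46 without fibrotic lung 1). Umod, from the thick ascending limb, stood at 14.39 and 14.56 in the kidneys, a difference of 8.01 ± 1.00 (adjusted p = 0.000121; 7.01 without fibrotic lung 3 to 9.37 without fibrotic lung 1). Guca2b, the peptide uroguanylin that promotes salt loss, stood at 12.80 and 12.80 against 6.01, 4.53 and 4.41. It differed by 7.82 ± 0.38 (limma adjusted p = 2.75e-07), with 7.53 without fibrotic lung 3 and 8.33 without fibrotic lung 1. Miox, which breaks down inositol in the proximal tubule, stood at 13.41 and 11.81 against 6.11, 4.59 and 4.69 and differed by 7.48 ± 0.49 (6.68 without fibrotic kidney 1 to 8.28 without fibrotic kidney 2). In each of these genes lung 1 was the highest of the lungs and no lung came within 5 log2 units of a kidney.

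The remaining leading kidney genes were Keg1, a glycine acyltransferase-like enzyme, the brush border scaffold Pdzk1, the fatty acid transporter Slc27a2, the protease inhibitor-like Wfdc15b, and the kallikreins Klk1, Klk1b5, Klk1b26 and Klk1b27. Pdzk1 stood at 13.77 and 12.98 against 7.17, 5.19 and 4.58, a difference of 7.73 ± 1.00 (7.20 without fibrotic lung 3 to 8.49 without fibrotic lung 1). Klk1, the kallikrein of the distal nephron, stood at 13.40 and 12.97 against 7.31, 4.73 and 4.56 and differed by 7.65 ± 0.68 (7.16 without fibrotic lung 3 to 8.54 without fibrotic lung 1). Kallikrein genes are close copies of one another, and their probes may take up each other's transcripts, so which member is expressed is uncertain. The 12 leading kidney genes differed by 7.36 to 8.40 log2 units, with adjusted p from 2.75e-07 to 0.00406, and all 12 were also called higher in healthy kidney than in healthy lung. Keg1 and Slc27a2 are also liver genes, and healthy lung 3 stood apart for both: the healthy lungs held Keg1 at 5.73, 4.34 and 11.31 and Slc27a2 at 7.07, 7.10 and 11.71.

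**Figure D2:**
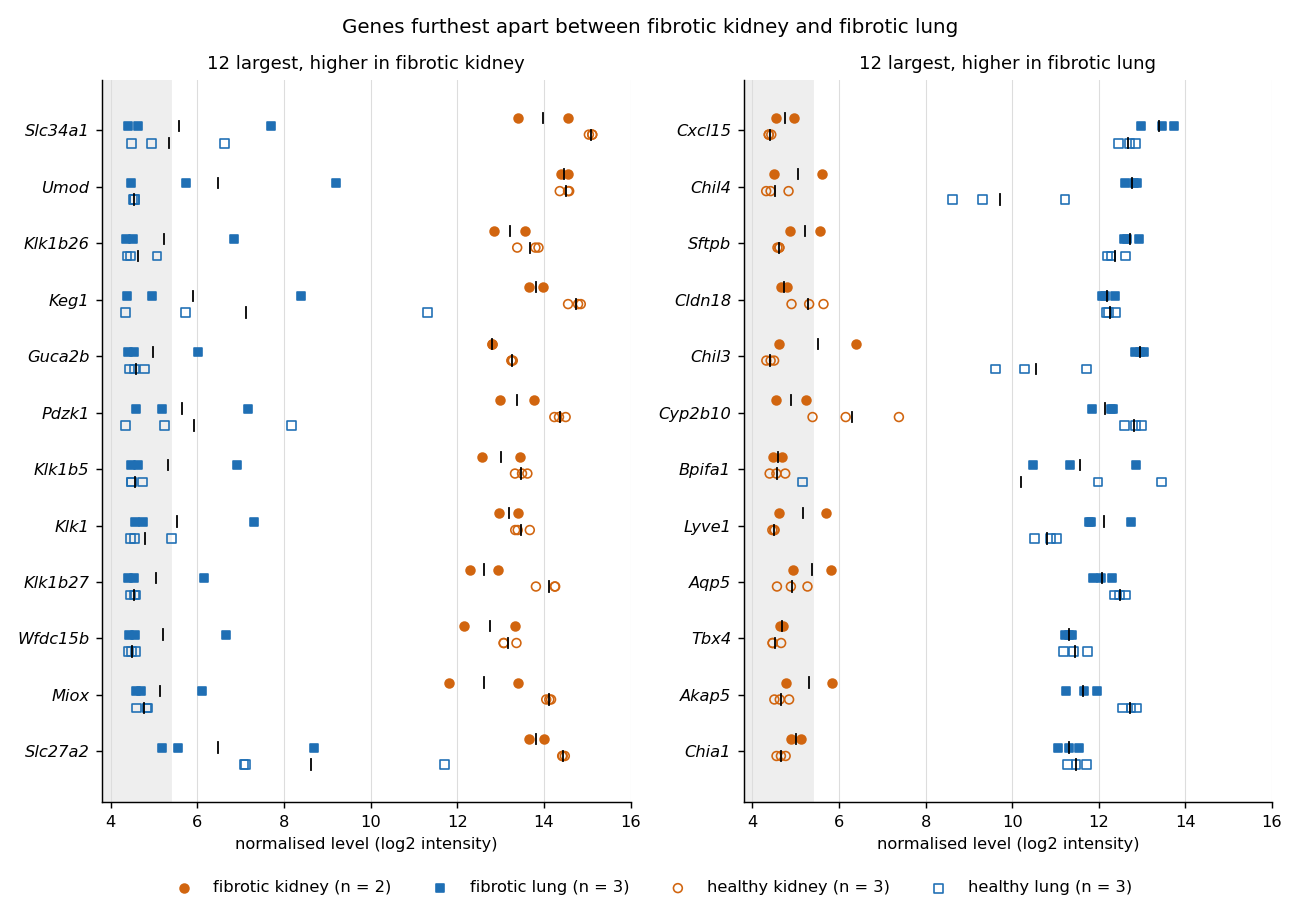
Normalised log2 level (x axis) of the 12 genes with the largest called difference in each direction, in fibrotic kidney, fibrotic lung and, as open symbols, the healthy organs. Each point is 1 array and black ticks are means. The filled symbols of kidney and lung are far apart for every gene drawn, with fibrotic lung 1 above the other lungs for each of the kidney genes.

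The promoter windows of 3 of the genes higher in kidney and 1 higher in lung are shown as examples of where short matches to the sites of tubule factors lie, and were picked for holding such a match. They do not stand for all leading genes: of the 12 leading kidney genes, 4 held an HNF1 match in a window and 7 held neither an HNF1 nor an HNF4 match, and of 11 leading lung genes with a window, 2 held an HNF1 match and 8 neither. The windows run from 250 bases before to 50 bases after the start site, 5′ to 3′ on the gene's strand, and come from RefSeq on GRCm38.p6. Capitals mark matches, on either strand, to GTTAAT, a core of the HNF1 site, or CAAAGTC, a site of HNF4, and no matches shown overlap. Slc34a1 lies at chr13:55399398-55399697 on the plus strand, Guca2b at chr4:119658896-119659195 on the minus strand, an Hnf4a promoter at chr2:163546905-163547204 on the plus strand and Sftpb at chr6:72304360-72304659 on the plus strand.
Slc34a1: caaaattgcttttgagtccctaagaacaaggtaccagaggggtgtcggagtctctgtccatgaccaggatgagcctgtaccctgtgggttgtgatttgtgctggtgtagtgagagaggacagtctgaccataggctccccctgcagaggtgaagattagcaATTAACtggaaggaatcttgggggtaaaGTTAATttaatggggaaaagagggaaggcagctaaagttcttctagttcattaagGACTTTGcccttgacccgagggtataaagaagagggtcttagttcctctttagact
Guca2b: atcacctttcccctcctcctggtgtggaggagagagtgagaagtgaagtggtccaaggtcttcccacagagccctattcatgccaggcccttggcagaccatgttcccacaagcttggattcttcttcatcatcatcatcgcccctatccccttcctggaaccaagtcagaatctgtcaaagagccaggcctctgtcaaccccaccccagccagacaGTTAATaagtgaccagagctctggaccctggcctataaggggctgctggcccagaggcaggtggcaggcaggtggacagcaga
Hnf4a: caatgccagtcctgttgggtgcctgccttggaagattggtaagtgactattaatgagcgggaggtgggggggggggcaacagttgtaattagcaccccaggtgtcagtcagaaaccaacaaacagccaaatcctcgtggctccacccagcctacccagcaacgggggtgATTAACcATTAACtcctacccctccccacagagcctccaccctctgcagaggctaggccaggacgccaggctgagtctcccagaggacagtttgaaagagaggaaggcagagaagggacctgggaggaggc
Sftpb: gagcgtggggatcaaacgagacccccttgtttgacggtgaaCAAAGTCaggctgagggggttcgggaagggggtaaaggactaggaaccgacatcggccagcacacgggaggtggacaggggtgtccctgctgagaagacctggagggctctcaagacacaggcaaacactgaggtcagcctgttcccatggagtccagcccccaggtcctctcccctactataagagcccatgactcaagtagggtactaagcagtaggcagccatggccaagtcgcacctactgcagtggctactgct
Slc34a1 held HNF1 matches starting 89 and 61 bases before the start and an HNF4 match 6 bases before it. Guca2b held an HNF1 match 33 bases before the start, and this Hnf4a promoter held a pair, 81 and 74 bases before. Sftpb held no HNF1 match and an HNF4 match 209 bases before the start.

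Over all genes, the HNF1 core was present in 10.9% of the 607 promoter windows found for 482 of the 620 genes at least 4-fold higher in fibrotic kidney, in 5.56% of the 486 windows for 373 of the 505 genes at least 4-fold higher in fibrotic lung, in 4.75% of the 12368 windows of the genes tested and in 7.1% of all 32851 windows. The HNF4 site was in 6.75%, 5.14%, 3.99% and 4.44% of the same sets. TCAAGTG, a site of NKX2-1, was in 3.62%, 3.29%, 2.34% and 3.06%, and TGTTTAC, a site of FOXA factors, in 3.46%, 4.32%, 2.68% and 3.65%. These shares are descriptions of letters in a window, without a test.

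Almost every part of the tubule was higher in fibrotic kidney. Of 29 proximal tubule transporters above background, 25 were called higher in kidney and 0 in lung (24.1% and 23.1% of all genes), with a median difference of 4.40 (3.54 without fibrotic kidney 1 and 5.04 without kidney 2). Slc7a9, a cystine and basic amino acid transporter, stood at 11.76 and 10.47 against 5.14, 4.48 and 4.67 and differed by 6.35 ± 0.35 (5.70 without fibrotic kidney 1 to 7.00 without fibrotic kidney 2). Brush border and endocytosis genes went 16 and 0 of 18 (median 3.96), among them Lrp2, the megalin receptor for filtered protein. The scaffold partner Cdhr5 differed by 7.21 ± 1.10 (6.91 without fibrotic lung 3 to 7.62 without fibrotic lung 1). The amino acid transporter chaperone Cltrn differed by 6.67 ± 0.50 (6.31 without fibrotic lung 3 to 7.34 without fibrotic lung 1). Lrp2 stood at 13.51 and 12.61 in kidney and at 9.60, 8.90 and 9.33 in lung, where it was above background on all arrays, and differed by 3.79 ± 0.26. Proximal tubule enzymes went 19 and 0 of 20 (median 4.70, with 3.93 without fibrotic kidney 1 and 5.47 without kidney 2). Glyat, which conjugates acids to glycine, differed by 7.14 ± 1.47 (6.88 without fibrotic lung 2 to 7.45 without fibrotic lung 1). Healthy lung 3 stood apart for the enzyme list, at a summed intensity of 29942 against 2002 and 5763 in healthy lungs 1 and 2. Its values enter the pooled spread behind the SE.

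Loop of Henle and distal tubule genes went 20 and 0 of 21, with a median of 4.78 (3.50 without fibrotic kidney 1 and 5.61 without kidney 2). Fxyd2, the regulatory subunit of the sodium pump, stood at 13.12 and 12.53 against 6.77, 5.31 and 4.85. It differed by 7.18 ± 0.44 (6.78 without fibrotic lung 3 to 7.75 without fibrotic lung 1). Collecting duct genes went 15 and 1 of 19 (median 2.60; 3.28 without fibrotic kidney 2). Aqp2, the vasopressin-regulated water channel, stood at 10.08 and 9.89 against 4.46, 4.50 and 4.37, a difference of 5.54 ± 0.29, and Hsd11b2, which protects the mineralocorticoid receptor from cortisol-like steroids, differed by 4.26 ± 0.35 (3.53 without fibrotic kidney 1 to 4.99 without fibrotic kidney 2). Slc4a1, the anion exchanger of intercalated cells and of red cells, stood at 10.68 and 8.95 against 4.60, 4.68 and 4.48, where no lung was above background. It was at least 30.5-fold higher in kidney: such a bound sets the bright group against the detection edge of the dim group's arrays, and is used wherever no array of a group was above background. Red cell transcripts were also higher in these kidneys, as given below, and their part in Slc4a1 was not tested. In whole tissue, fewer cells of a type and less RNA per cell cannot be told apart, here and in all that follows.

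Podocyte genes showed no common direction. Of 7 above background, 2 were called higher in kidney and 1 in lung (median 0.25; -0.07 without fibrotic kidney 1 and -0.14 in the processed intensities of the authors). Nphs1, the slit diaphragm protein nephrin, stood at 6.59 and 5.35 in the kidneys and was not above background in lung, at least 2.12-fold higher (limma adjusted p = 0.00625), a call lost without fibrotic kidney 1. Foxc2, a podocyte and endothelial factor, was at least 1.93-fold higher. Cdkn1c, a cell cycle inhibitor, was higher in lung by a difference of -0.57 ± 0.16, a call lost without fibrotic kidney 2.

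The genes furthest above kidney in the fibrotic lung included genes of alveolar and airway epithelium, of macrophages, of vessels and, with Tbx4, of the lung mesenchyme. Cxcl15, a chemokine made by lung epithelium, stood at 13.45, 12.98 and 13.75 in the lungs and was not above background in either kidney, at least 313-fold higher in lung (limma adjusted p = 1.41e-08). Sftpb, a surfactant protein, stood at 12.57, 12.65 and 12.93 and differed by -7.50 ± 0.22 (adjusted p = 1.5e-08). Cldn18, the tight junction protein of alveolar epithelium, stood at 12.37, 12.15 and 12.07 and was at least 137-fold higher, and Aqp5, the water channel of type 1 cells, stood at 12.29, 12.05 and 11.86 against 5.81 and 4.93 and differed by -6.70 ± 0.28. In all 4 of these genes the lungs lay within 1 log2 unit of one another and far above the kidneys.

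Chil4 and Chil3, chitinase-like proteins of macrophages and airway cells, differed by -7.72 ± 0.61 (-8.27 without fibrotic kidney 2 to -7.17 without fibrotic kidney 1) and -7.43 ± 0.58 (-8.32 without fibrotic kidney 2 to -6.55 without fibrotic kidney 1). The kidneys held Chil3 at 4.62 and 6.39, above background in kidney 2 alone. The 2 genes are close copies and their probes may share transcripts. Cyp2b10, a cytochrome of club cells, differed by -7.26 ± 0.46, and Lyve1, the hyaluronan receptor of lymphatic vessels and some macrophages, by -6.95 ± 0.35. Akap5, a kinase anchor, and Chia1, a secreted chitinase, differed by -6.32 ± 0.30 and -6.30 ± 0.19. Bpifa1, a secreted airway defence protein, varied among the lungs, at 11.33, 10.49 and 12.86, and was at least 87.6-fold higher than in kidney (adjusted p = 0.0111), a call lost without fibrotic kidney 1. The 12 leading lung genes differed by -8.64 to -6.30, with adjusted p from 1.41e-08 to 0.0111, and all 12 were called in the same direction between the healthy organs.

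The lists of lung cells were mostly higher in lung. Alveolar type 1 genes went 21 higher in lung and 0 in kidney of 22 (median -3.23), with Ager, the type 1 cell receptor, at 13.30, 13.24 and 13.56 in lung and 7.71 and 6.58 in the kidneys, a difference of -6.22 ± 0.35. Surfactant and type 2 genes went 16 and 2 of 21 (median -2.33), and Sftpa1 differed by -5.50 ± 0.32. Club and secretory airway genes went 15 and 1 of 19 with a median of -4.16 (-3.51 without fibrotic lung 3), and Sec14l3, a lipid carrier of airway cells, differed by -5.92 ± 0.22. Sftpc and Scgb1a1, with the kidney levels given above, differed by -5.11 ± 0.33 (-5.85 without fibrotic kidney 1 to -4.37 without fibrotic kidney 2) and -3.09 ± 0.27. Multiciliated cell genes went 16 and 1 of 24 (median -1.97): the dynein light chain Dynlrb2 stood at 10.78, 10.37 and 10.49 against 6.72 and 5.81, and the cilium protein Pifo was at least 8.01-fold higher in lung.

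Vessels and connective tissue of the lung were also higher there. Endothelial genes went 28 higher in lung and 3 in kidney of 36 (median -1.84). Tmem100 stood at 12.66, 12.72 and 12.42 in the lungs and 6.93 and 6.20 in the kidneys, a difference of -6.04 ± 0.27, and von Willebrand factor, Vwf, differed by -5.90 ± 0.30. Lung mesenchyme genes went 15 and 0 of 22 (median -1.30). Mfap4, a microfibril protein, stood at 11.92, 11.49 and 12.15 in the lungs and at 8.35 and 6.14 in the kidneys, which differed from each other by more than the lungs did, and the difference was -4.61 ± 0.50 (-5.72 without fibrotic kidney 1 to -3.50 without fibrotic kidney 2).

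Of 18 kidney transcription factors on the array, 12 passed the detection filter, and all 12 of these were called higher in fibrotic kidney, with a median difference of 3.66. The other 6, Pax2 among them, did not pass the filter and were not read. Of the 18, 13 and 13 were above background in the fibrotic kidneys and 8, 6 and 7 in the fibrotic lungs, so this count too is in part built into the filter. Hnf4a, a driver of proximal tubule genes, stood at 11.08 and 10.19 against 5.64, 5.04 and 5.67 and differed by 5.19 ± 0.78 (limma adjusted p = 0.000431). Tfap2b, of the distal tubule, was at least 22.2-fold higher, and Pax8, which specifies the nephron, stood at 6.78 and 6.91 and was at least 3.89-fold higher. Esrrb, a nuclear receptor, differed by 4.41 ± 0.47 (3.55 without fibrotic kidney 1 to 5.28 without fibrotic kidney 2). Of 19 lung factors, 15 were called higher in fibrotic lung and 1 in kidney (median -1.92). Nkx2-1 stood at 10.56, 10.08 and 10.26 in lung and at 4.91 and 5.06, not above background, in kidney, at least 36.7-fold higher. Tbx4, of the lung mesenchyme, was at least 73.6-fold higher, its relative Tbx5 at least 1.69-fold and Foxf1, also mesenchymal, at least 22.8-fold, each on all 3 lungs. Hopx, of type 1 cells, stood at 13.90, 13.94 and 13.95 in lung and was present in kidney at 8.17 and 7.49, a difference of -6.10 ± 0.22.

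Hox genes record position along the body axis, and those that passed the filter were mostly higher in fibrotic kidney. Of 19 genes of groups 8 to 13 on the array, 9 passed. Above background were 8 and 8 in the fibrotic kidneys and 5, 2 and 3 in the fibrotic lungs, so the counts are in part built into the filter. Of the 9, 7 were called higher in kidney and 0 in lung, with a median of 3.61 (2.34 after scaling to a common median, 2.13 in the processed values). Hoxd10 stood at 10.83 and 9.91 against 5.34, 4.67 and 4.44, Hoxd8 differed by 5.39 ± 0.33 and Hoxd9 was at least 28.7-fold higher. Of 14 genes of groups 1 to 7, 11 were called higher in kidney and 3 in lung, with a median of 1.76. Hoxc6 differed by 5.14 ± 0.26, Hoxd4 was at least 14.9-fold higher and Hoxb7 stood at 11.15 and 11.36 against 8.11, 7.91 and 7.76, above background in both organs.

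Some transporters and peptidases have a kidney form and a lung form. Slc34a2, the phosphate carrier of type 2 cells and relative of Slc34a1, stood at 10.28, 9.54 and 10.30 in lung and at 6.89 and 8.53 in the fibrotic kidneys, a difference of -2.33 ± 0.41 (adjusted p = 0.00117; -3.15 without fibrotic kidney 2 to -1.51 without fibrotic kidney 1), whereas healthy kidneys held it at 4.51 to 4.86. Aqp1, the constitutive water channel of proximal tubule and capillaries, was high in both organs, at 13.28 and 12.40 in kidney and 13.53, 13.59 and 13.53 in lung. Its difference of -0.71 ± 0.23 (adjusted p = 0.0273) was no longer called without fibrotic kidney 2 or any 1 of the lungs. Napsa, an aspartic protease of type 2 cells and proximal tubule, stood at 14.74 and 14.57 in kidney and 13, 12.49 and 12.45 in lung, 2.00 ± 0.19 higher in kidney. Ace, which makes angiotensin II, stood at 12.40, 11.78 and 12.29 in lung and 8.49 and 8.46 in kidney, a difference of -3.68 ± 0.18. Of 9 renin and angiotensin genes above background, 5 were called higher in kidney and 1, Ace, in lung (median 0.94; 0.61 without fibrotic lung 2, 0.53 in the authors' processed values and 0.32 without fibrotic lungs 1 and 2). Mme, neprilysin, differed by 1.71 ± 0.17, and Anpep, aminopeptidase N, by 1.45 ± 0.42 (0.63 without fibrotic kidney 1 to 2.28 without fibrotic kidney 2), a call lost without fibrotic kidney 1 or fibrotic lung 2.

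**Figure D3:**
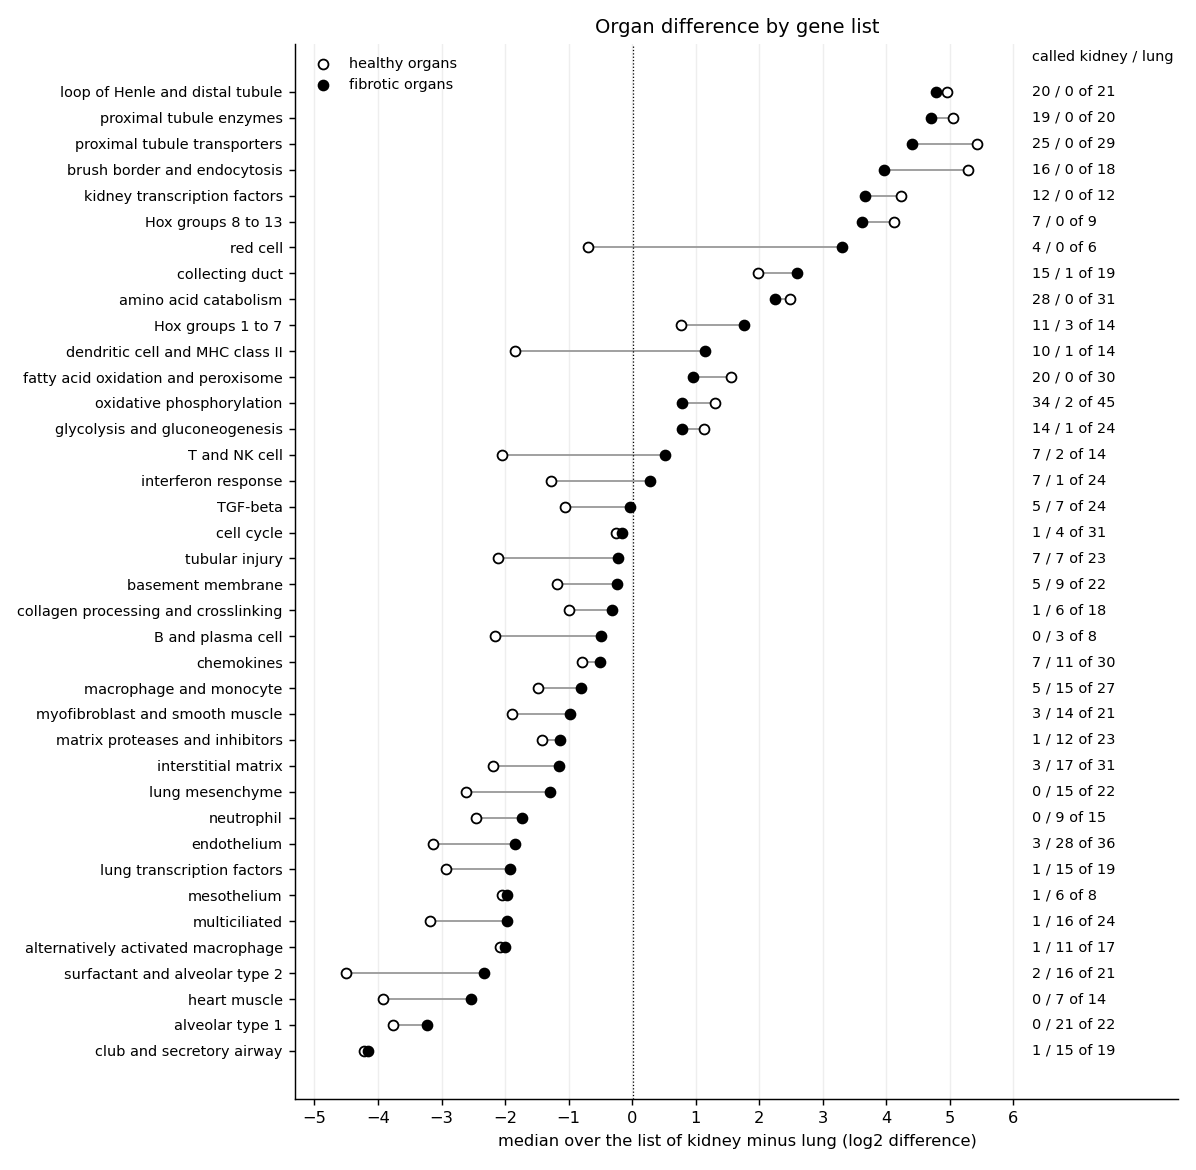
Median over each gene list of the log2 difference, kidney minus lung (x axis), between the fibrotic organs (filled) and between the healthy organs (open), with the number of members called higher in fibrotic kidney and in fibrotic lung of those above background. The dotted line is the median of all 12008 genes. Tubule lists lie to the right and lung epithelial lists to the left in both states, and the red cell, MHC class II, T cell and interferon medians lie on opposite sides of 0 in the healthy and the fibrotic organs.

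Matrix genes were on balance higher in the fibrotic lung. Of 31 interstitial matrix genes, 17 were called higher in lung and 3 in kidney (23.1% and 24.1% of all genes), with a median of -1.16. The lung was already ahead in health, with 22 called higher in healthy lung and 0 in healthy kidney (34.9% and 28.4% of all genes; median -2.185). The organ difference changed towards kidney for 16 of the genes and towards lung for 4 (25.2% and 16.6% of all genes). Elastin, Eln, stood at 13.34, 12.59 and 13.23 in the lungs and at 7.19 and 6.59 in the kidneys, a difference of -6.17 ± 0.30. Thbs1, thrombospondin, which can activate TGF-beta, differed by -3.31 ± 0.34, and Fn1, fibronectin, stood at 12.89, 12.07 and 12.94 against 9.39 and 10.28, a difference of -2.80 ± 0.34. Col1a1, the main fibrillar collagen chain, stood at 11.50, 10.37 and 11.62 in lung and 9.02 and 9.71 in kidney. The groups did not overlap, and the difference of -1.80 ± 0.48 (limma adjusted p = 0.011) lost its call without fibrotic kidney 1 (-1.45). Col3a1 stood at 8.88, 8.99 and 9.76 against 7.94 and 8.64, a difference of -0.92 ± 0.27 that was likewise lost without fibrotic kidney 1 (-0.57).

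Basement membrane genes were called in both directions, 5 higher in kidney and 9 in lung of 22 (24.1% and 23.1% of all genes). The kidney count was near the share of all genes, and the median was -0.24 (-0.12 without fibrotic lung 1 and -0.36 without fibrotic kidney 2). Tinag, a tubule basement membrane protein, stood at 11.83 and 10.93 in kidney against 7.28, 7.09 and 6.82 and differed by 4.32 ± 0.27, and the laminin chain Lama1 by 1.74 ± 0.25. Lamb3, a laminin of epithelia, was higher in lung, at 10.84, 10.94 and 11.00 against 7.61 and 9.35 (-2.45 ± 0.68; -3.32 without fibrotic kidney 2 to -1.58 without fibrotic kidney 1), a call lost without fibrotic kidney 1. Collagen processing genes went 1 and 6 of 18 (median -0.31; 0.01 without fibrotic kidney 1 and -0.56 without kidney 2). The crosslinking enzyme Lox stood at 12.48, 12.46 and 12.57 against 8.77 and 10.12 (-3.06 ± 0.33; -3.73 without fibrotic kidney 2 to -2.38 without fibrotic kidney 1), Loxl1 differed by -1.47 ± 0.15 and the procollagen enhancer Pcolce2 by -3.04 ± 0.16.

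Matrix proteases and inhibitors went 1 higher in kidney and 12 in lung of 23 (median -1.14; -0.64 without fibrotic kidney 1). The 1 higher in kidney was Plau, urokinase, which the tubule makes and releases into urine: it stood at 13.38 and 13.40 against 9.18, 8.82 and 9.35 and differed by 4.27 ± 0.19 (limma adjusted p = 1.61e-07). The stromelysins Mmp3 and Mmp10 were higher in lung by differences of -3.37 ± 0.53 (-4.60 without fibrotic kidney 2 to -2.15 without fibrotic kidney 1) and -2.92 ± 0.33 (-3.53 without fibrotic kidney 2 to -2.30 without fibrotic kidney 1). Timp1, an inhibitor of these proteases, was not called: kidney 1 lay below and kidney 2 among the lungs, at 9.51 and 13.75 in kidney and 12.91, 13.65 and 13.77 in lung (-1.82 ± 0.92, adjusted p = 0.13; -3.93 without fibrotic kidney 2 to 0.30 without fibrotic kidney 1).

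Myofibroblast and smooth muscle genes went 3 higher in kidney and 14 in lung of 21 (median -0.97, and -1.89 between the healthy organs). Acta2, smooth muscle actin, stood at 13.67, 13.61 and 13.94 in lung and 12.16 and 12.72 in kidney, a difference of -1.30 ± 0.38 (limma adjusted p = 0.0184) whose call was lost without fibrotic kidney 1 (-1.02) or fibrotic lung 3. Vim, vimentin, stood at 12.45, 12.23 and 12.53 against 8.32 and 9.90 (-3.29 ± 0.37; -4.08 without fibrotic kidney 2 to -2.50 without fibrotic kidney 1), Actg2, the enteric smooth muscle actin, differed by -3.51 ± 0.66 (-4.48 without fibrotic kidney 2 to -2.54 without fibrotic kidney 1) and S100a4, a fibroblast and macrophage protein, by -2.98 ± 0.28. TGF-beta pathway genes showed no common direction, at 5 and 7 of 24, near the shares of all genes (24.1% and 23.1%). Their median of -0.04 lay between -0.20 and 0.05 with 1 fibrotic array left out. Itgb8, an integrin that activates the ligand, and Bmp7, which opposes it in the kidney, were higher in kidney (2.32 ± 0.31 and 2.22 ± 0.30), and Ltbp1, which stores the latent ligand in matrix, was higher in lung (-2.17 ± 0.25).

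Heart muscle and mesothelial transcripts were present in the lungs beside these groups. Of 14 heart muscle genes on the array, 13, 13 and 14 were above background in the fibrotic lungs and 3 and 4 in the fibrotic kidneys, with summed intensities of 5034, 5030 and 13930 against 502 and 349. Myh6, a myosin chain of heart muscle, stood at 10.53, 9.89 and 10.88 in the lungs and was not above background in kidney, at least 40.3-fold higher, a call lost without fibrotic kidney 2. Pulmonary veins carry heart muscle in mice. Mesothelial genes, from the pleura, summed to 5964 to 6924 in the lungs against 937 and 1263, all 8 above background in lung, and Msln was at least 44.2-fold higher in lung. Their part in the muscle and matrix results was not tested.

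Injury genes of the tubule did not move one way. Of 23 such genes, 7 were called higher in kidney and 7 in lung (24.1% and 23.1% of all genes). Their median of -0.22 ran from -0.57 without fibrotic kidney 2 to 0.39 without fibrotic kidney 1. Havcr1, the injury receptor KIM-1, stood at 10.24 and 13.13 in the kidneys against 5.85, 4.90 and 4.68 and differed by 6.54 ± 0.67 (limma adjusted p = 3.5e-05; 5.09 without fibrotic kidney 2 to 7.99 without fibrotic kidney 1). Krt20, a keratin found in bladder lining and damaged tubules, stood at 8.59 and 11.27 against 4.87, 4.75 and 4.56 (5.20 ± 0.57; 3.86 without fibrotic kidney 2 to 6.54 without fibrotic kidney 1), and Sox9, a factor of tubule repair, differed by 3.13 ± 0.43 (2.40 without fibrotic kidney 2 to 3.87 without fibrotic kidney 1). In all 3 kidney 2 was the higher kidney. Lcn2, the iron-carrier-binding protein used as a marker of tubular injury, was not called: the kidneys, at 11.30 and 14.83, enclosed the lungs, at 13.18, 13.71 and 13.81 (-0.50 ± 0.84, adjusted p = 0.647; -2.27 without fibrotic kidney 2 to 1.26 without fibrotic kidney 1).

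Macrophage genes were mostly higher in the fibrotic lung, with Fcrls, an Fc receptor-like protein, among the exceptions. Of 27 macrophage and monocyte genes, 15 were called higher in lung and 5 in kidney (median -0.80, and -1.48 between the healthy organs). Ly6c1, a surface protein of monocytes and endothelium, stood at 13.64, 13.74 and 13.65 against 8.94 and 8.85, a difference of -4.78 ± 0.16, and the scavenger receptor Cd163 differed by -3.39 ± 0.48. Fcrls went the other way, at 9.88 and 9.82 in the kidneys and 5.14, 4.98 and 5.79 in the lungs, 4.55 ± 0.23 higher in kidney (limma adjusted p = 3.12e-07). Genes of alternatively activated macrophages went 11 and 1 of 17 (median -2.0). Gpnmb, a glycoprotein of lipid-laden macrophages, stood at 13.30, 10.93 and 12.02 against 6.37 and 7.92 (-4.93 ± 0.64; -5.71 without fibrotic kidney 2 to -4.16 without fibrotic kidney 1) and Retnla, a secreted marker of this state, at 13, 12.78 and 13.32 against 9.71 and 7.24 (-4.56 ± 0.72; -5.80 without fibrotic kidney 1 to -3.32 without fibrotic kidney 2). Alveolar macrophage genes went 11 and 2 of 15 (median -1.39), with Ctsk, a collagen-degrading protease, at a difference of -2.86 ± 0.36 and the lipid receptor Trem2 at -2.38 ± 0.30. Neutrophil genes went 9 and 0 of 15 (median -1.73; -0.94 without fibrotic kidney 1 and -2.51 without kidney 2). Stfa2, a protease inhibitor of myeloid cells with close copies, differed by -4.67 ± 0.54 (-5.59 without fibrotic kidney 2 to -3.75 without fibrotic kidney 1), and Ltf, the granule protein lactoferrin, by -5.50 ± 1.57 (-7.04 without fibrotic kidney 2 to -3.97 without fibrotic kidney 1), a call lost without fibrotic kidney 1.

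Antigen presentation genes were higher in the fibrotic kidney. Of 14 dendritic cell and MHC class II genes, 10 were called higher in kidney and 1 in lung (24.1% and 23.1% of all genes), with a median of 1.14, whereas between the healthy organs 12 were higher in lung and 0 in kidney (34.9% and 28.4% of all genes; median -1.85). H2-Eb1, an MHC class II chain, stood at 12.59 and 11.41 in fibrotic kidney against 8.69, 8.24 and 9.48 in fibrotic lung, a difference of 3.20 ± 0.38 (limma adjusted p = 8.48e-05; 2.61 without fibrotic kidney 1 to 3.79 without fibrotic kidney 2). H2-Ab1, the beta chain of the other class II molecule, differed by 2.60 ± 0.32, and H2-DMb1, which loads peptide, by 2.37 ± 0.42 (1.74 without fibrotic kidney 1 to 3.00 without fibrotic kidney 2). Every kidney lay above every lung for these 3 genes.

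T and NK cell genes went 7 higher in kidney and 2 in lung of 14 (median 0.52; 0.17 without fibrotic kidney 1 and 0.84 without kidney 2). Ccl5, a chemokine of T cells, stood at 10.29 and 9.47 against 5.92, 5.72 and 6.51 (3.83 ± 0.33) and Thy1, carried by T cells and fibroblasts, at 9.14 and 10.84 against 6.86, 6.69 and 7.79 (2.88 ± 0.47; 2.03 without fibrotic kidney 2 to 3.73 without fibrotic kidney 1). B and plasma cell genes went 0 and 3 of 8 (median -0.49). Chemokines went 7 and 11 of 30 (median -0.50; -1.04 without fibrotic kidney 2, -0.26 without kidney 1 and -0.78 without fibrotic lung 2), with Cxcl13, which draws B cells, at least 44.6-fold higher in lung and Cxcl17, of mucosal epithelium, different by -4.82 ± 0.54. Interferon response genes went 7 and 1 of 24, near the share of all genes in kidney, with a median of 0.28 that was 0.06 without fibrotic lung 2, -0.14 without fibrotic lungs 1 and 2, and -0.20 in the authors' processed intensities. Among them Rsad2, an antiviral enzyme, differed by 1.73 ± 0.32 and Gbp3, a guanylate-binding protein, by 1.49 ± 0.37 (0.80 without fibrotic kidney 2 to 2.19 without fibrotic kidney 1), the latter a call lost without fibrotic kidney 2.

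Red cell transcripts moved with these results, with 4 of 6 genes called higher in fibrotic kidney, 0 in lung and a median of 3.31, against -0.69 between the healthy organs. Of 11 red cell genes on the array, 6 and 6 were above background in the kidneys. All 11 summed to intensities of 21551 and 41735 there, against 4033, 2653 and 3339 in the lungs. The haemoglobin chain Hbb-bs stood at 12.70 and 13.77 in fibrotic kidney against 9.98, 9.19 and 9.54 in fibrotic lung, with healthy lung at 14.79 to 14.85, a fibrotic difference of 3.66 ± 0.34. Hbb-bs, Hbb-bt and Hbb-b2 are near-identical and cannot be told apart with confidence. The part of blood in the immune results was not tested.

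Energy and amino acid metabolism was higher in the fibrotic kidney. Amino acid catabolism genes went 28 higher in kidney and 0 in lung of 31 (median 2.25). Hgd, of tyrosine breakdown, stood at 12.27 and 11.02 against 5.52, 4.60 and 4.59 (6.74 ± 1.37; 6.12 without fibrotic kidney 1 to 7.36 without fibrotic kidney 2), Prodh2, of hydroxyproline breakdown, differed by 6.11 ± 1.19 (5.25 without fibrotic kidney 1 to 6.96 without fibrotic kidney 2) and Gldc, which cleaves glycine, by 5.32 ± 1.05. Fatty acid oxidation and peroxisome genes went 20 and 0 of 30 (median 0.95). Acaa1b, a peroxisomal thiolase, stood at 11.83 and 10.31 against 5.72, 5.39 and 5.44, Ppargc1a, the coactivator of mitochondrial genes, differed by 3.39 ± 0.42 (2.56 without fibrotic kidney 1 to 4.23 without fibrotic kidney 2) and Ehhadh, a peroxisomal enzyme, by 3.08 ± 0.21. Oxidative phosphorylation genes went 34 and 2 of 45, though by smaller steps, with a median of 0.79 (0.52 without fibrotic kidney 1). Uqcrc1 of complex III and Ndufb8 of complex I differed by 1.46 ± 0.18 and 1.41 ± 0.23. Glycolysis and gluconeogenesis genes went 14 and 1 of 24 (median 0.78), led by Fbp1, which runs gluconeogenesis in the proximal tubule, at 12.18 and 10.75 against 5.92, 6.25 and 5.56 (5.55 ± 1.25; 4.84 without fibrotic kidney 1 to 6.27 without fibrotic kidney 2), and the glucose transporter Slc2a2, at least 16.8-fold higher.

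Detoxification genes were called in both directions, 16 higher in kidney and 11 in lung of 44 (24.1% and 23.1% of all genes). The lung count was near the share of all genes, and the median was 0.20 (-0.15 without fibrotic kidney 1 and -0.20 in the authors' processed intensities). Sult1c2, a sulfotransferase, differed by 6.34 ± 0.45 (5.68 without fibrotic kidney 1 to 7.00 without fibrotic kidney 2) and Ugt3a1, a glycosyltransferase, by 5.23 ± 1.03, while Cyp2f2, the club cell cytochrome, stood at 13.01, 12.27 and 12.82 in lung against 7.76 and 7.06 (-5.29 ± 0.32). Iron and haem genes went 2 and 7 of 22 (median -0.27). Hamp, hepcidin, was at least 12.5-fold higher in lung and Hp, the haemoglobin scavenger haptoglobin, stood at 13.65, 13.65 and 13.45 in lung and at 6.60 and 9.79 in kidney (-5.39 ± 0.71; -6.98 without fibrotic kidney 2 to -3.79 without fibrotic kidney 1). Few cell cycle genes were called, 1 in kidney and 4 in lung of 31, both below the share of all genes, with a median of -0.16 that ran from -0.53 without fibrotic kidney 2 to 0.24 without fibrotic kidney 1. Kif11, a mitotic kinesin, was the 1 higher in kidney (0.93 ± 0.24), a call lost without fibrotic kidney 2, and the cyclins Ccne2 and Ccnd2 were among the 4 higher in lung, Ccne2 at least 1.27-fold and Ccnd2 at a difference of -1.47 ± 0.33, a call lost without fibrotic kidney 1.

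Most organ-specific genes stayed apart in disease. Organ-specific genes were taken as those at least 4-fold higher, and called, between the healthy organs, which chose 778 kidney genes (6.48% of all) and 1243 lung genes (10.4%). Of the kidney genes, 623 (80.1%) were still called higher in fibrotic kidney, 430 (55.3%) of them at least 4-fold, 122 were not called and 33 were called higher in fibrotic lung. Of the lung genes, 838 (67.4%) were still called higher in fibrotic lung, 370 (29.8%) at least 4-fold, 367 were not called and 38 were called higher in fibrotic kidney. Among those over 10-fold in health, 320 of 336 kidney genes and 333 of 394 lung genes remained called.

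The median difference of the kidney genes was 3.07 between healthy organs and 2.24 between fibrotic ones, and that of the lung genes 2.85 and 1.28 in favour of lung. The organ difference narrowed, by a limma test of the change in difference, for 370 kidney genes and 871 lung genes and widened for 13 and 13. The healthy arrays chose these genes for a large difference, so a narrower one in other arrays is in part built into the choice, and the medians and counts of narrowing are a description. A further 43 genes of 823 and 9 of 1253 that were organ-specific by the same measure were not above background on 2 of the fibrotic arrays and could not be followed.

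**Figure D4:**
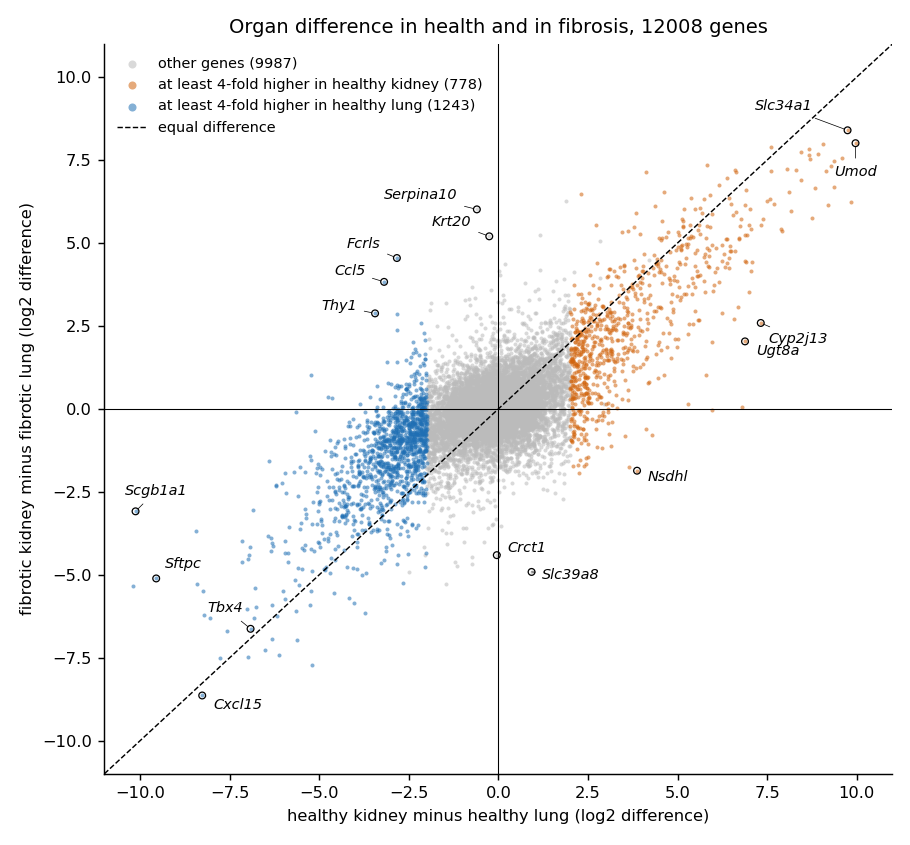
Log2 difference, kidney minus lung, between the fibrotic organs (y axis) against that between the healthy organs (x axis), with 1 point a gene for 12008 genes. Orange and blue mark genes at least 4-fold higher in healthy kidney (778) and healthy lung (1243), and the dashed line marks equal differences. Most kidney genes (655) lie below the line and most lung genes (1149) above it, which the choice of genes in part builds in. The kidney gene Slc34a1 lies near the line, Scgb1a1 and Sftpc lie above it, and Fcrls, Ccl5 and Thy1 lie across the horizontal axis.

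The organ difference itself changed with disease for 3030 genes (25.2%) towards kidney and 1999 (16.6%) towards lung. The largest change towards kidney was that of Fcrls, at -2.83 between the healthy organs and 4.55 between the fibrotic ones, a change of 7.38 ± 0.31 (limma adjusted p = 1.26e-06). Ccl5 changed by 7.02 ± 0.45, Thy1 by 6.32 ± 0.64 and H2-DMb1 by 5.21 ± 0.56, each high in healthy lung, lower in fibrotic lung and higher in fibrotic than in healthy kidney. The 38 lung genes that crossed to kidney included the invariant chain Cd74 (-2.22 and 1.64), its regulator Ciita (-2.12 and 1.40), the adhesion molecule Vcam1 (-2.46 and 1.38), the factor Sox4 (-2.37 and 2.02), the plasmacytoid dendritic cell lectin Siglech (-2.05 and 2.09) and the growth factor Hgf (-2.82 and 1.42), with the healthy difference first, all picked from the 38 after their values were seen. Serpina10, a plasma protease inhibitor, stood at 10.76 and 12.38 in the fibrotic kidneys against 6.17, 5.01 and 5.49 in the fibrotic lungs and 5.64, 5.51 and 10.10 in the healthy lungs, and changed by 6.62 ± 1.53 (5.11 without healthy lung 3, limma adjusted p = 0.000283). Healthy lung 3 held 18 of 21 liver genes above background. All 21 summed to an intensity of 140635 there, to 2424 and 2034 in the other healthy lungs and to 2458 and 13881 in fibrotic kidneys 1 and 2. The part of liver transcripts in this change was not tested beyond leaving that lung out. Krt20 changed by 5.46 ± 0.76. Scgb1a1 changed by 7.04 ± 0.36, with the kidney levels given above, and Hbb-b2 by 5.69 ± 0.30.

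The largest change towards lung was that of Slc39a8, a zinc and manganese importer, which stood at 9.75, 10.31 and 10.53 in the fibrotic lungs and 4.64 and 5.92 in the fibrotic kidneys, against 5.90 to 7.24 and 7.21 to 7.83 in the healthy organs, a change of -5.84 ± 0.59 (limma adjusted p = 8.28e-05). Crct1, an epidermal differentiation gene, was above background in the fibrotic lungs alone of the 4 groups, at 9.47, 9.51 and 7.98, and changed by -4.36 ± 0.51. Nsdhl, of cholesterol synthesis, changed by -5.73 ± 0.40, from 3.87 to -1.86, and was among the 33 kidney genes that crossed to lung. Others of the 33, likewise picked after their values were seen, were the chaperone Calr (2.45 and -1.48), the glucocorticoid target Fkbp5 (2.51 and -1.06), the inhibitory Fc receptor Fcgr2b (2.29 and -1.04) and the kinesin Kif20b (3.55 and -0.82), the last a fibrotic call lost without fibrotic kidney 1. Ugt8a, a galactosyltransferase, and the cytochromes Cyp2a4 and Cyp2j13 narrowed without crossing, by -4.85 ± 0.20, -4.78 ± 0.23 and -4.73 ± 0.35. Cyp2a4 and Cyp2j13 belong to families with sex-biased expression in rodents, and the healthy kidneys carried Y-linked RNA where the fibrotic ones did not, so disease and these sex-linked transcripts cannot be told apart in the kidney. Srp54a, a subunit of the signal recognition particle with near-identical copies, changed by -4.52 ± 0.39.

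**Figure D5:**
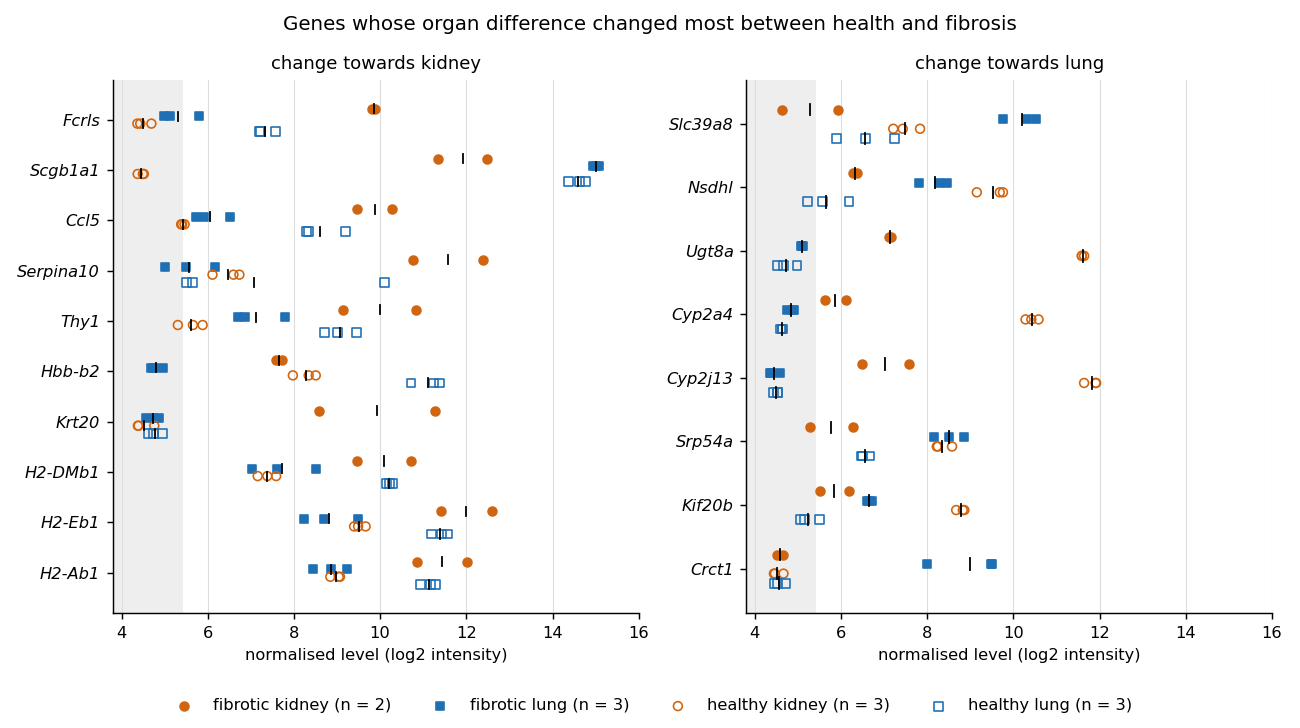
Normalised log2 level (x axis) of the 8 genes whose organ difference changed most in each direction, with H2-Eb1 and H2-Ab1 added, in all 11 arrays (points), with group means as black ticks. Filled symbols are fibrotic and open symbols healthy organs. For Fcrls, Ccl5, Thy1 and the H2 genes the filled orange points lie above the filled blue ones while the open symbols are in the reverse order.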

How the data were processed

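RNA of whole kidney and lung was measured on Illumina mouse bead arrays of 1 colour. The deposited intensity values are bead summaries per probe without normalization, with a detection p-value beside each, per the file headers, and GenomeStudio 5.0 is named in the submitters' processing notes. The authors' processed intensities are a straight line of the raw ones on each array. Of 45281 probes, 34885 carried 1 gene symbol, 18 several and 10378 none in the platform annotation, and only the first were used. No columns were left unassigned.

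All 11 arrays were background-corrected and quantile-normalised with neqc (limma 3.58.1, R 4.3.3; offset 16; detection p-values standing in for negative controls) and log2 transformed. Probes with detection p under 0.05 on at least 2 of the 5 fibrotic arrays were kept (18898), and each gene was read from its probe with the highest mean there. A gene counted as above background on an array if any of its probes was, kept or not. In 170 of 4693 genes with several kept probes, probes were called opposite ways. A limma fit of the 4 groups (7 residual degrees of freedom) gave the differences and adjusted p over 12008 genes by the Benjamini-Hochberg method. The procedure was tested on simulated data. The number of arrays limits the precision, and with 2 and 3 samples a group the p-values depend on a spread pooled over the 4 groups.

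Genes to name were the 12 largest non-overlapping called differences each way and up to 3 of the largest called members of each of 55 gene lists. The 8 largest changes of the organ difference each way and a set taken whatever its values were added. Not all of these are described above: Pvalb, Fga, Sln, Myl7, Myl1 and Atf3 are among those left out. Clone and predicted-gene names were passed over. Members and lists were chosen with earlier results of these data known.

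Alternatives tried were no background correction, the authors' processed intensities, a common median, offset 50, other detection filters, every probe, another choice of probe, a trended robust prior, the compared groups alone, mouse as a block and each array left out. The titles give the healthy organs shared mouse numbers, while the descriptions number all samples apart. The fibrotic groups share no mouse, and the correlation within mice was -0.0235.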

Additional observations from a re-analysis of the deposited data

Results flagged for a closer look

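The genes below were picked out because the kidney minus lung difference between the fibrotic organs was not the difference between the healthy organs, by the limma test of that change at an adjusted p under 0.05. Values are the change in log2 units, fibrotic difference minus healthy difference.

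Immune cell and antigen presentation genes moved towards kidney, namely Fcrls (7.38), Ccl5 (7.02), Thy1 (6.32) and H2-DMb1 (5.21). Lung epithelial genes that the fibrotic kidneys also held moved towards kidney as well, namely Scgb1a1 (7.04), Sftpc (4.44), Slc34a2 (3.89) and Ager (1.99). Of the tubular injury and fibrosis genes looked at, Krt20 (5.46), Lcn2 (3.63), Acta2 (1.65) and Col3a1 (1.27) did the same. Havcr1, Col1a1, Fn1 and Timp1 were looked at as well, and their change was not called. The others towards kidney were Hbb-b2 (5.69), Serpina10 (6.62) and Xist (4.16). The healthy arrays carried Y-linked RNA and the fibrotic kidneys carried Xist, so sex-linked transcripts and disease cannot be told apart in the kidney.

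Genes that moved towards lung were Ace (-1.12), Aqp2 (-1.44), Crct1 (-4.36), Cyp2a4 (-4.78), Cyp2j13 (-4.73), Kif20b (-4.37), Nsdhl (-5.73), Slc39a8 (-5.84), Srp54a (-4.52) and Ugt8a (-4.85). Cyp2a4 and Srp54a have near-identical relatives, and their probes may take up more than 1 transcript. Without healthy lung 3, which held liver transcripts, the change of Serpina10 was 5.11 (limma adjusted p = 0.000283). A formal check of the highest and lowest sample of a group needs at least 4 samples and was not run, and arrays that stood apart are described from their values and from leaving them out.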

How the results depend on the processing

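Without background correction, 309 and 215 genes were at least 4-fold higher in kidney and in lung (620 and 505 as reported), and 411 of 461 kidney-specific and 453 of 585 lung-specific genes stayed apart. In the authors' processed intensities 1513 genes were higher in kidney and 5015 in lung, 932 of them at least 4-fold in lung. List medians moved there with the median of all genes: to 0.72 for MHC class II genes, 0.60 for fatty acid oxidation, 0.39 for oxidative phosphorylation, 0.32 for glycolysis and 0.31 for T cells, and to -1.24 for macrophages, -1.02 for chemokines, -0.89 for B cells, -0.81 for collagen processing, -0.75 for iron, -0.68 for cell cycle, -0.60 for basement membrane and for tubular injury and -0.48 for TGF-beta genes. An offset of 50 left 331 genes at least 4-fold higher in lung. With detection required on all 5 arrays, 329 and 279 genes were at least 4-fold apart and 361 of 500 kidney-specific genes stayed apart, fewer genes being tested. Over every probe, 4521 probes were lower in kidney and 8123 changed their organ difference, and the median of the sex-linked list turned to 2.26. Without fibrotic lungs 1 and 2, chosen after seeing the data, 1817 and 1705 genes were called. Without fibrotic kidney 1, Lcn2 turned to 1.26 and Timp1 to 0.30, and without fibrotic kidney 2 they stood at -2.27 and -3.93. Each of these fits leaves 1 kidney, and the direction of both genes depended on which kidney was kept. With mouse as a replicate block for the healthy organs, 2893 and 2778 genes were called, 623 and 837 organ-specific genes stayed apart and 5011 genes changed their organ difference. Except where fewer genes or samples entered, the cause of each shift was not tested. Leaving out any 1 array kept each of the main counts within 1.5 times. Low genes, near the edge of detection, are limited by signal over background.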
